A study of Mus musculus with 5 samples.

Results

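The 9 genes described here encode the constant parts of mouse antibodies and the chain that joins antibody units: Ighm, Ighd, Ighg3, Ighg1, Ighg2b, Ighg2c and Igha for the heavy chain, Igkc for the kappa light chain, and Jchain. They were chosen by name and are 9 of the 32285 genes in each of the 3 tumor-draining lymph node (TDLN) reactions. Every reaction was made from unsorted cells of inguinal TDLNs. The donors were male WT animals of the C57BL/6J strain, aged 8 to 10 weeks, that bore s.c. tumors of TRAMP-C2, a mouse prostate cancer line, and were harvested on day 15. Mice of 3 treatments were combined in each reaction after hashtag staining. The treatments were isotype antibodies, dual checkpoint inhibition (CPI) with both anti-CTLA4 and anti-PD-1, and CPI followed by the JAK1 inhibitor ABT-317. Isotype or CPI antibodies were given on day 3, day 6 and day 9. On day 12 mice received ABT-317 at 20 mg/kg or, in the other treatments, vehicle (DPBS). All 99 antibody features hold 0 counts in these matrices, so every value below covers the 3 treatments together and no treatment effect could be measured. The labels do not say that the reactions came from separate mice. With the reaction as a block, p-values weigh differences between classes of barcodes against how much these vary from reaction to reaction. That variation may be technical.

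A B cell that has not met antigen carries IgM and IgD, made from a single transcript that is spliced to Ighm or to Ighd. After activation, class switch recombination replaces Ighm with a downstream constant gene, which gives the IgG subclasses, IgE or IgA and leaves each cell with a single isotype. Plasma cells secrete antibody at very high rates; they also express Jchain, whose product links IgM and IgA into polymers but which IgG plasma cells transcribe as well. C57BL/6 mice carry Ighg2c at the position where other strains carry Ighg2a.

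The 7 heavy-chain genes lie in a row on chromosome 12 of GRCm38, on the minus strand, from Ighm at chr12:113418558-113422730 through Ighd at chr12:113406604-113416324, Ighg3 at chr12:113356224-113361232, Ighg1 at chr12:113325240-113330523, Ighg2b at chr12:113302965-113307933 and Ighg2c at chr12:113285325-113288932 to Igha at chr12:113254830-113260236 (GENCODE M21). Igkc lies on the plus strand of chromosome 6 (chr6:70726435-70726966), and Jchain on the minus strand of chromosome 5 (chr5:88519809-88527891). A 5′ library reads from the V segment into the first constant exon (CH1), so the isotype of a read is decided by sequence of this kind. The first 60 bases of the CH1 exon of each heavy-chain gene are given 5′ to 3′, with capitals in the IgG genes at the 22 of 60 positions where the 4 of them are not all the same.
Ighm: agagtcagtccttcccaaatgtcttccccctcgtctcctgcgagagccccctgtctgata
Ighd: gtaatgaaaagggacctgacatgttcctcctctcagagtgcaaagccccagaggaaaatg
Ighg3: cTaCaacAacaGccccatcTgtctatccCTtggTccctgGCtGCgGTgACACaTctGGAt
Ighg1: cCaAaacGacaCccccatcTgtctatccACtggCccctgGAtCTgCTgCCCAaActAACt
Ighg2b: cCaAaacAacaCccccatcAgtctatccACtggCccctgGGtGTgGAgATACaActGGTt
Ighg2c: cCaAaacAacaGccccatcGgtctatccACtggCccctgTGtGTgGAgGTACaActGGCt
Igha: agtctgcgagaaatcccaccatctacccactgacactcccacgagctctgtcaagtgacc

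Over the whole CH1 exon, 291 bases in each IgG gene, the closest pair was Ighg1 and Ighg2b at 88.3% identical positions and the most distant pair Ighg3 and Ighg2c at 78.4%. Ighm shared 26.8% to 29.6% of positions with the IgG genes, but exons were compared base by base from their start, without alignment. The Ighm exon has 315 bases, so this value is no measure of how alike the aligned exons are. Within the first 60 bases Ighg2b and Ighg2c were identical at 91.7% of positions. Every window of 90 bases in the transcripts of all 9 genes occurred in the transcripts of no other gene of the annotation (100%), so a read of that length that matches exactly belongs to a single gene; shorter or mismatched reads of the IgG genes remain uncertain.

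The reactions held 62575, 56511 and 7050 barcodes with 127052825, 105259770 and 18055617 gene UMIs (unique molecular identifiers, one per captured RNA molecule). After filters, 62322, 56229 and 6518 barcodes remained. Barcodes were divided by UMIs of 8 B cell genes (among them Cd79a, Cd79b, Ms4a1, Cd22, Pax5, Fcer2a and Ly6d) and 8 T cell genes (Cd3d, Cd3e, Cd3g, Trac, Trbc1, Trbc2, Lck, Thy1), none of which is among the 9 antibody genes. With at least 5 such UMIs, a barcode was B-marker at a B share of 0.9 or more, T-marker at 0.1 or less and mixed from 0.25 to 0.75. Mixed barcodes were 69.4%, 59.3% and 65.2% of those passing in reactions 1, 2 and 3, that is 43231, 33334 and 4251 barcodes. B-marker barcodes numbered 1123, 925 and 46, and T-marker barcodes 989, 2906 and 107; 2080, 2487 and 174 barcodes lay within 0.05 of these cuts. The lists separate the classes by construction: in reaction 1 the B list summed to 5068 CPM (the usual per-library scaling: UMIs of a gene divided by all gene UMIs of the class in that reaction, at a common total) in B-marker, 2393 in mixed and 60.3 in T-marker barcodes, and the T list to 121, 2282 and 3639 CPM. Mixed barcodes had medians of 5, 4 and 5 B-list and 4, 5 and 5 T-list UMIs, so their values are not assigned to a B or a T cell here. Plasma-type barcodes (at least 3 of 8 plasma cell genes, 0.5% of UMIs from them, and more than 2 plasma-list UMIs for each T-list UMI) numbered 4, 6 and 0. Summed levels of erythroid genes also differed between reactions, at 1638, 421 and 137 CPM in mixed barcodes; their part in the results was not tested. Reactions 1 and 2 shared 4842 barcode sequences, reactions 1 and 3 shared 582, and reactions 2 and 3 shared 576.

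Summed over the barcodes that passed the filters, Igkc, Jchain, Ighg1 and Ighm were the most abundant of the 9 by their means. Igha was the least abundant, except in reaction 2, where Ighg3 was lower. Over all passing barcodes Igkc was 563 ± 15.2 CPM (SD, n = 3 reactions), Jchain 396 ± 29.7, Ighg1 366 ± 109 and Ighm 338 ± 45.3. Ighd followed at 133 ± 34.3 CPM, while Ighg2c was at 48.6 ± 11.8, Ighg2b at 30.9 ± 19.9, Ighg3 at 20.0 ± 21.7 and Igha at 1.30 ± 0.320. These are UMIs of whole genes and not levels per length. Ranges of neighbours in this order overlapped between Jchain, Ighg1 and Ighm, so their order is not separated by the spread between reactions.

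Over all passing barcodes the reactions differed little in Igkc and Jchain and more in each heavy-chain gene, most of all in Ighg3. Igkc differed by 1.05-fold between the highest and the lowest reaction and Jchain by 1.16-fold. This order did not hold for Jchain in mixed barcodes, where it differed by 1.56-fold and Ighm by 1.28-fold. Without filters Jchain was at 436, 398 and 320 CPM and Ighm at 345, 288 and 371 CPM in reactions 1, 2 and 3. Ighg1 was then at 484, 378 and 185 CPM, against 255 CPM in the passing barcodes of reaction 3. The filters kept 12545323 of 18055617 gene UMIs in reaction 3. They kept 125092094 of 127052825 in reaction 1 and 102860083 of 105259770 in reaction 2. Ighg3, the IgG subclass that responds mainly to carbohydrate antigens, was at 15.8 CPM in reaction 1, 0.719 in reaction 2 and 43.4 in reaction 3, a 60.4-fold range. The deposited barcodes without filters gave the same order for Ighg3, 15.6, 0.703 and 43.1 CPM. Ighg2b ranged over 3.35-fold, with reaction 2 highest at 53.5 CPM. In a sum over barcodes, fewer barcodes with an isotype and less RNA per barcode cannot be told apart. Shares of barcodes are therefore given below as well. They are not shares of cells, since most passing barcodes of each reaction were mixed. Reaction 1 also held 62575 barcodes, more than the number of cells that the paper's methods give per reaction.

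Mixed barcodes, the largest class, held IgM, IgD and IgG transcripts together. Ighm was at 339, 290.2 and 372 CPM in reactions 1, 2 and 3. Ighd was at 169.9, 109 and 120.4 CPM. Ighg1 was at 473, 394 and 180.5 CPM, so that reaction 3 stood lowest. Ighm had the narrower range of these, 1.28-fold against 2.62-fold for Ighg1. Ighg3 was at 18.3, 0.609 and 25.0 CPM and Ighg2b at 17.2, 51.4 and 22.9 CPM. Ighg2c was at 64.9, 34.5 and 29.2 CPM. Reaction 2 therefore held the least Ighg3 and the most Ighg2b, and reaction 1 the most Ighg2c. Igha, the constant gene of mucosal antibody, was at 1.02, 1.23 and 1.89 CPM, from 95, 81 and 18 UMIs. Igkc was at 547, 553 and 533 CPM and Jchain at 431, 403 and 277 CPM.

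**Figure D1:**
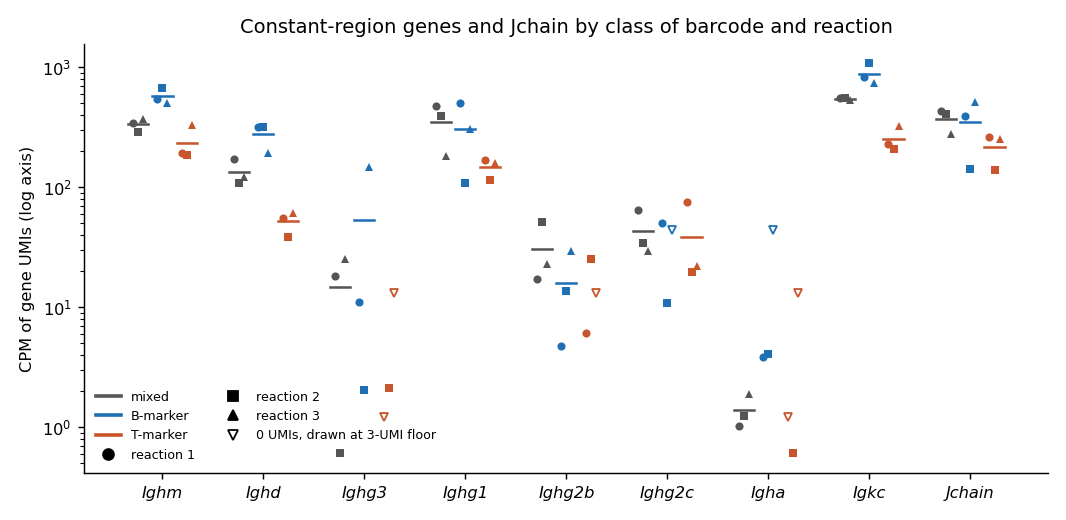
CPM of each of the 9 genes (log axis) in mixed, B-marker and T-marker barcodes, with 1 point per reaction and a bar at the mean where all 3 values are above 0; open triangles are sums of 0 UMIs drawn at the level of 3 UMIs. The Igkc points of the mixed class lie between 533 and 553 CPM, while those of Ighg3 lie between 0.609 and 25.0.

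Expressed as a share of heavy-chain constant UMIs, mixed barcodes held large parts of both IgM plus IgD and IgG. The IgG genes together took 52.9% (exact 95% interval 52.6 to 53.2, 53441 of 100967 UMIs) in reaction 1, 54.6% in reaction 2 (54.1 to 55.0) and 34.3% in reaction 3 (33.2 to 35.4), with a mean of 47.2% ± 11.3 (SD, n = 3). Intervals here and below cover counting error only. They treat UMIs as independent and are too narrow where UMIs of a gene cluster in single barcodes. Ighg1 alone made up 43.7%, 44.7% and 24.01%, Ighm 31.3%, 33.0% and 49.5%, and Ighd 15.7%, 12.3% and 16.0%. For Ighm, Ighg1 and the IgG total, reactions 1 and 2 were thus closer to each other than to reaction 3. Reaction 3 had more Ighm and less Ighg1 than either, while its Ighd share was closest to that of reaction 1. Igha took 0.0941%, 0.140% and 0.251%.

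B-marker barcodes carried more IgM and IgD than mixed barcodes in every reaction. Ighm was at 539, 672 and 498 CPM, and Ighd at 318, 316 and 191 CPM. Igkc was at 822, 1072 and 733 CPM. For each of these 3 genes the lowest B-marker value was above the highest mixed value, as it was for 8.03% of all genes tested. The IgG genes took 39.9% of heavy-chain UMIs in reaction 1 (exact 95% interval 38.1 to 41.7, 3002 UMIs), 11.9% in reaction 2 (10.4 to 13.5, 1666 UMIs) and 41.2% in reaction 3 (30.4 to 52.8, 80 UMIs), a mean of 31.0% ± 16.6. The interval of reaction 2 lay below those of the other reactions, but it does not count the clustering of UMIs in barcodes. Ighg1 was at 505, 108 and 308 CPM. A single barcode held 245 of the 1059 Ighg1 UMIs in reaction 1, and without it the level there was 388 CPM. Jchain was at 394, 142 and 513 CPM, with the lowest value again in reaction 2. Ighg3 reached 147 CPM in reaction 3 from 10 UMIs, against 11.0 and 2.03 CPM; without the top barcode it was 58.6 CPM.

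T-marker barcodes give the level of these genes where B cell genes are nearly absent. Ighm was at 191, 184 and 329 CPM, Ighd at 55.4, 38.5 and 61.4, and Igkc at 228, 206 and 325. The IgG genes took 50.3%, 41.9% and 31.5% of heavy-chain UMIs. Ighg1 was at 169, 114 and 158 CPM and Jchain at 262, 140.1 and 250.0 CPM. Igha had 0 UMIs in reactions 1 and 3, where 3 UMIs would have given 1.22 and 13.2 CPM, and 4 UMIs in reaction 2. A UMI of Ighm was found in 36.8%, 31.5% and 45.8% of T-marker barcodes, against 57.3%, 57.8% and 43.5% of B-marker barcodes. Median depths were 2084, 1908 and 1903 UMIs for T-marker and 1705, 1277 and 1327 for B-marker barcodes, and thinning each barcode to 1000 UMIs gave 19.4%, 17.1% and 24.7% against 40.0%, 46.1% and 35.0%. At the unthinned depth the Ighm share in reaction 3 was no higher in B-marker than in T-marker barcodes. A UMI of Ighg1 was found in 8.39%, 7.09% and 7.48% of T-marker barcodes and in 12.8%, 5.19% and 10.9% of B-marker barcodes. Thinned to 1000 UMIs these were 6.74%, 5.62% and 5.15% against 10.4%, 5.01% and 10.0%, and in reaction 2 its levels in B-marker and T-marker barcodes, 108 and 114 CPM, had overlapping exact Poisson intervals (91.5 to 126 and 106 to 123). Jchain stood at 10.0%, 9.39% and 15.0% of T-marker against 15.0%, 7.14% and 21.7% of B-marker barcodes, and after thinning at 7.78%, 7.50% and 7.22% against 12.1%, 6.15% and 20.0%. In reaction 2 its level was 142 CPM in B-marker and 140.1 in T-marker barcodes. The variance of UMIs per T-marker barcode was 9.54, 7.18 and 5.94 times the mean for Ighg1 and 1.01, 1.10 and 1.30 times the mean for Ighd. In reaction 1 a single T-marker barcode held 239 of 644 Jchain UMIs, and without it the level was 165 CPM.

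**Figure D2:**
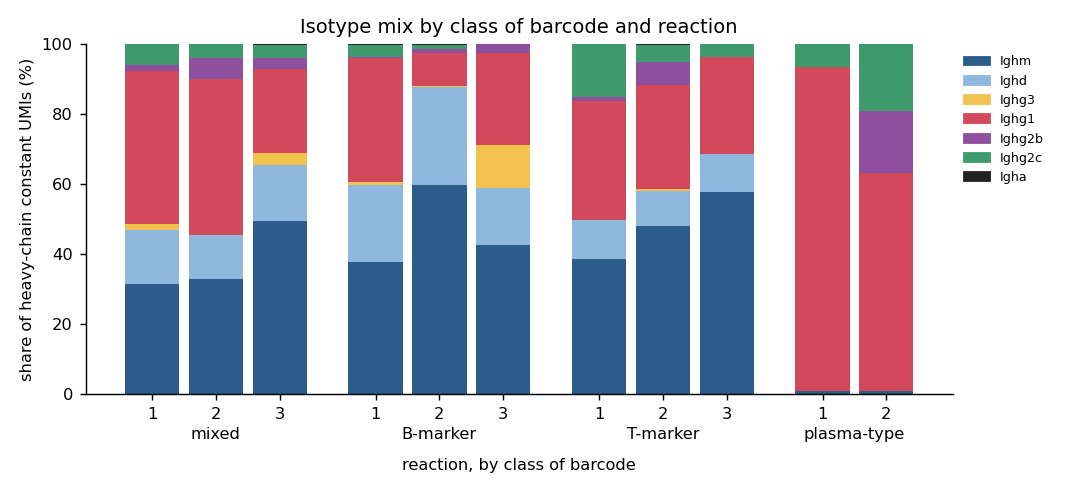
Share of heavy-chain constant UMIs (percent, stacked to 100) taken by each isotype gene in mixed, B-marker, T-marker and plasma-type barcodes of each reaction; reaction 3 had no plasma-type barcode. The bar of B-marker barcodes in reaction 2 is 87.8% Ighm plus Ighd, and both plasma-type bars are 99.1% IgG.

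Whether B-marker and T-marker barcodes differ was tested by edgeR's quasi-likelihood test on UMIs summed per class and reaction, with the reaction as a block and Benjamini-Hochberg adjustment over all genes tested. Of 10479 genes, 23.9% passed an adjusted p of 0.05. Of the 9 antibody genes 8 were tested and 3 passed, all higher in B-marker barcodes and all without overlap between the classes, where 12.3% of all genes passed as higher and 13.5% had every B-marker sum above every T-marker sum. Ighd rose by 2.63 on the log2 scale (SE 0.172, adjusted p 1.07e-08), Igkc by 1.86 (SE 0.158, adjusted p 1.77e-07) and Ighm by 1.42 (SE 0.165, adjusted p 5.21e-06). Ighd is the isotype of mature naive B cells, and its fold difference of 6.21 was more than that of Ighm, 2.68. None of the IgG genes passed. Ighg1 had a log2 difference of 0.82 (adjusted p 0.0725), Ighg3 of 1.78 (0.282), Ighg2b of -0.74 (0.113) and Ighg2c of -0.57 (0.137), and each overlapped between the classes. A single T-marker barcode of reaction 1 held 100 of 183 Ighg2c UMIs, and without it the T-marker level there was 33.8 in place of 74.5 CPM, below the 50.6 CPM of B-marker barcodes. Jchain had a log2 difference of 0.34 (SE 0.2497, adjusted p 0.372). Igha was below the count filter. Without reaction 2 the calls for Ighg1 (1.36, adjusted p 1.47e-15), Ighg3 (11.16, 1.32e-09), Ighg2c (-0.64, 0.0393) and Jchain (0.53, 0.00585) passed, and without reaction 1 the Ighg1 difference was -0.02 (0.973); the Ighg3 estimate is against sums of 0 UMIs in T-marker barcodes and is no bound. With all reactions kept, Ighg1, Ighg2c and Ighg3 also passed with no low-count filter (adjusted p 7.02e-07, 0.0177 and 0.00256), Ighg1 and Ighg2c in a fit of these 2 classes alone (0.0385 and 0.0267) and Ighg1 with stricter class cuts (0.0466), where the Ighg2c difference was 0.11 (0.817). The side of the threshold thus differed between settings for these genes.

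Genes that act with the constant regions were counted from lists in the same fit. All 13 B cell receptor partners were higher in B-marker barcodes, 4 of which (Cd79a, Cd79b and Cd22 among them) had been used to cut the classes, with a median log2 difference of 2.34 against -0.01 over all genes. The log2 differences were 6.42 for Cd79a, 6.13 for Cd79b and 5.78 for Cd22. All 4 genes tested from the light-chain list were higher: the lambda constants Iglc1 (2.42), Iglc2 (2.46) and Iglc3 (2.63), and the B lineage gene Vpreb3 (2.76). Of 14 receptors that direct switching, 7 were higher and 3 lower; Cd40, the receptor for T cell help, was 2.16 higher, Tlr7 2.13, Tnfrsf13c (the BAFF receptor) 2.05 and Tlr9 2.05. Of 13 genes of the class switch machinery, 2 were higher and 2 lower. Hmces was among those higher, at 1.04, and Rif1 among those lower, at -0.42. Of 10 germinal center genes tested 5 were higher, with Rgs13 at 2.71 and Mef2b at 1.46. Of 10 follicular genes 5 were higher, among them Cr2 (2.36), Cxcr5 (1.87) and Fcer2a (6.33), which had been used for the cuts. Of 3 memory genes tested, Cd38 (2.19) and Pdcd1lg2 (0.93) were higher and Nt5e (-0.68) lower. The secretory pathway had 7 of 20 higher and 1 lower, with a median of 0.01, and the plasma regulators 6 of 9 higher and 1 lower, Cd28 (-1.55), a T cell costimulatory receptor. Of the polymeric antibody partners 3 of 3 were higher, led by Fcmr (2.62), the Fc receptor for IgM.

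B-marker and mixed barcodes differed less. Of 10479 genes, 11.7% passed, and of the 8 antibody genes tested 5 passed, 3 higher and 2 lower, against 5.56% of genes higher and 6.16% lower. Ighd was 1.20 higher on the log2 scale in B-marker barcodes (SE 0.147, adjusted p 0.000139), Ighm 0.89 higher (SE 0.153, adjusted p 0.00123) and Igkc 0.74 higher (SE 0.144, adjusted p 0.00279). Ighg2b was lower by a log2 difference of -1.79 (SE 0.269, adjusted p 0.000522) and Ighg2c by -0.76 (SE 0.239, adjusted p 0.0458), although the ranges of both overlapped between classes. The B-marker sums behind Ighg2b were 10, 20 and 2 UMIs. The Ighg2c call was lost without reaction 2 (adjusted p 0.421), without reaction 3 (0.196), by DESeq2 (0.0978) and without upper gene and mitochondrial limits (0.0711). At the 0.3% plasma-type cut the Ighg2c and Igkc calls were lost (0.588 and 0.0824). Without the block the Ighm and Igkc calls were also lost (adjusted p 0.0611 and 0.0622), as were those of Ighg2b (0.215) and Ighg2c (0.780). Jchain (-0.48, adjusted p 0.220), Ighg1 (-0.48, 0.335) and Ighg3 (0.13, 0.948) did not pass. Without reaction 1 all 3 did, with Jchain at -0.69 (0.0185), Ighg1 at -1.14 (2.80e-05) and Ighg3 at 2.17 (0.00359), while without reaction 2 the differences were 0.10 (0.916), 0.26 (0.451) and -0.23 (0.880). With no low-count filter and all reactions, Ighg1 (-0.55, 0.000819) and Jchain (-0.55, 0.000539) passed as well.

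The same lists were counted in this comparison. All 13 B cell receptor partners were higher than in mixed barcodes (median 0.99, 4 used for the cuts). So were all 4 genes tested from the light-chain list, the lambda constants and Vpreb3, with Vpreb3 at 1.26 and Iglc3 at 1.23. Only Mzb1 (0.57), a chaperone of IgM assembly that was also on the list that set plasma-type barcodes aside, passed among the 20 secretory pathway genes. Of the 13 switch machinery genes 2 were higher, Hmces (0.60) among them, and none was lower. Of the switch-directing receptors 5 of 14 were higher and 2 lower, with Tnfrsf13c at 1.02 and Cd40 at 0.93. Follicular genes had 3 of 10 higher, including Fcer2a (1.11) of the cuts, germinal center genes 3 of 10 higher and 1 lower (Stmn1, a tubulin regulator of dividing cells, -0.51), memory genes 1 of 3 higher, plasma regulators 2 of 9 higher and 1 lower, and polymeric antibody partners 2 of 3 higher.

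**Figure D3:**
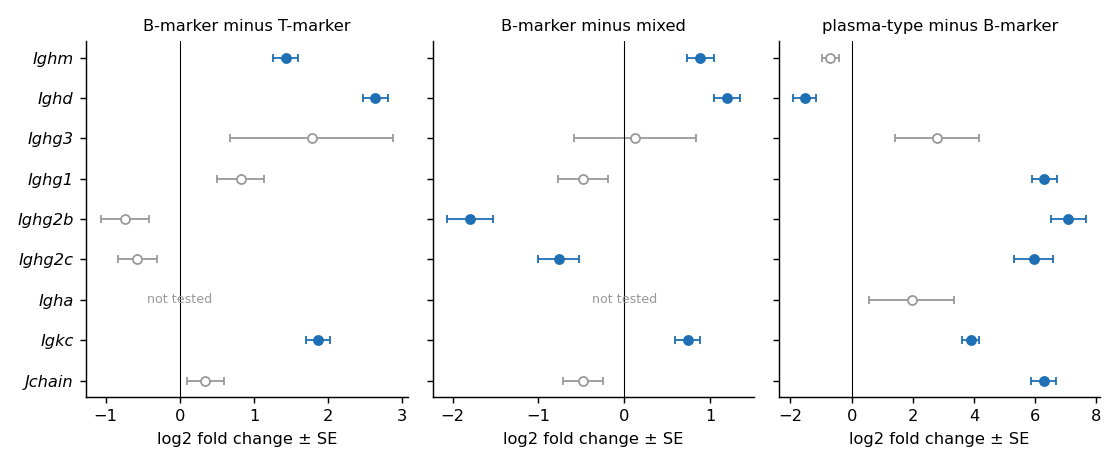
Log2 fold change ± SE of each gene in the 3 comparisons (edgeR, UMIs summed per class and reaction); filled points passed an adjusted p of 0.05 over all genes tested, open points did not. Ighd lies at 2.63, 1.20 and -1.53 across the panels, while Ighg1 passed only for plasma-type against B-marker barcodes, at 6.30.

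Plasma-type barcodes were nearly all IgG. The 4 barcodes of reaction 1 held 423 heavy-chain UMIs, 99.1% of them IgG (exact 95% interval 97.6 to 99.7), and the 6 of reaction 2 held 1099, also 99.1% IgG (98.3 to 99.6). Ighg1 was 92.4% in reaction 1 and 62.2% in reaction 2, Ighg2b 0% and 17.8%, and Ighg2c 6.62% and 19.0%. Ighd and Ighg3 had 0 UMIs in both. The erythroid list summed to 264 UMIs in the plasma-type barcodes of reaction 1, above the 171 of the plasma list, and to 0 in reaction 2; 262 of the 264 lay in 1 barcode, and their part in the result was not tested. Each barcode was dominated by a single isotype gene. Without the limits on genes and mitochondrial share there were 17 such barcodes, whose leading gene held between 90.3% and 100% of heavy-chain UMIs: Ighg1 in 13, Ighg2c in 2, Ighg2b in 1 and Ighm in 1. The Ighm-led barcode held 127 Ighm, 58 Igkc and 121 Jchain UMIs and failed the upper limit on genes. An Ighg1-led barcode of reaction 1 that passed held 218 Ighg1, 68 Igkc and 137 Jchain UMIs of 7565 in all, and it was also the barcode with the 262 erythroid UMIs. The Ighg2b-led barcode of reaction 2 held 196 Ighg2b and 8 Ighg1 UMIs. Immunoglobulin genes made up 33.3% and 42.3% of all UMIs in the plasma-type sums of reactions 1 and 2, against 0.863%, 0.861% and 0.738% in mixed barcodes.

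Because fewer than 10 barcodes per reaction met the rule, plasma-type and B-marker barcodes were compared at the planned lower cut of 0.3% of UMIs from plasma genes, which left 36 and 20 barcodes in reactions 1 and 2 and none to sum in reaction 3. Of 10672 genes 3.16% passed, and of the 9 antibody genes 6 passed, 5 higher and 1 lower, against 1.96% of genes higher and 1.20% lower. The sums were 11439 and 18069.8 CPM for Ighg1 against 387, 108 and 308 CPM in B-marker barcodes, a log2 difference of 6.30 (SE 0.412, adjusted p 8.00e-11). Jchain was 9441 and 20208 CPM against 309.8, 142 and 513, a log2 difference of 6.28 (SE 0.411, adjusted p 8.00e-11). Both genes were thus above every B-marker sum in both reactions, by 78.8-fold and 77.7-fold in the fit. Ighg2c was 5.95 higher (adjusted p 5.66e-07) and Igkc 3.89 higher (adjusted p 4.47e-10), both without overlap, but 203 of the 243 Ighg2c UMIs lay in 1 barcode of reaction 2 and 28 in 1 barcode of reaction 1. Every plasma-type sum was above every B-marker sum in 6.12% of all genes tested. Ighg2b was 7.09 higher (adjusted p 2.82e-09), but all 196 UMIs came from 1 barcode of reaction 2, and reaction 1 had 0; without reaction 2 the estimate was -9.41 (adjusted p 0.843), and by DESeq2 the call was lost (0.0759). Ighd, at 134.7 and 46.0 CPM from 16 UMIs, was lower by a log2 difference of -1.53 (SE 0.375, adjusted p 0.0206), and that call was lost by DESeq2 (0.0914), without reaction 2 (0.193), without the block (0.131) and in a fit of these 2 classes alone (0.0808). Ighm (-0.70, adjusted p 0.231), Ighg3 (2.79, 0.382) and Igha (1.97, 0.583) did not pass, although Ighg3 did without reaction 2 (2.92, 0.00262), with no low-count filter (0.0050002) and in a fit of the 2 classes alone (0.0349), and had an estimate of -8.26 (0.869) without reaction 1, which held all 10 of its plasma-type UMIs. Ighm passed as lower with no low-count filter (0.0447) and with no condition on T-list UMIs (0.0482), and its estimate was 0.37 (0.542) without upper gene and mitochondrial limits. The median of all genes in this comparison was -0.31, so changes are relative to that; scaling by library size alone gave 174 genes higher and 387 lower, in place of 209 and 128, and Ighm then passed as lower (-1.01, adjusted p 0.0264).

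The secretory pathway list was higher in plasma-type barcodes in 19 of 20 genes, with a median log2 difference of 2.68. Mzb1 (4.43) and Xbp1 (3.75), the transcription factor of the secretory program, had been used for the cut; Creld2 (3.82) and the chaperone Hsp90b1 (3.81) had not. Of 10 plasma regulators 6 were higher, among them Eaf2 (3.40), an elongation cofactor partner, and Prdm1 (3.91), which encodes Blimp-1 and was used for the cut. Tnfrsf17, another gene of the cut, had 0 UMIs in B-marker barcodes. Lambda constants rose with kappa: Iglc1 by 2.81, Iglc2 by 1.52 and Iglc3 by 1.41. B cell receptor partners were lower in 4 of 13, including the kinase gene Lyn (-1.61), and follicular genes in 5 of 10, including Bach2 (-1.004), a repressor of plasma cell differentiation. Cd22 (-2.02), Cd79a (-1.34) and Fcer2a (-1.94) are among these and had been used to define B-marker barcodes, so their calls are no finding. Fcmr was lower, at -1.68. Hmgb2 (-1.10) was the 1 of 11 germinal center genes that was lower, and none was higher. In the switch machinery, 0 of 13 genes passed, as did 0 of 13 switch-directing receptors and 0 of 3 memory genes.

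Within mixed barcodes, IgG transcripts were packed into few barcodes and IgM and IgD were spread thinly. At least 3 Ighg1 UMIs were found in 11.2%, 9.64% and 4.89% of mixed barcodes, and these held 91.1%, 86.7% and 84.1% of all Ighg1 UMIs in the class. At least 3 Ighd UMIs were found in 0.828%, 0.237% and 0.353%, and these held 7.12%, 3.48% and 4.09% of Ighd UMIs. The barcodes with 3 or more Ighm UMIs held 21.7%, 17.005% and 32.5% of Ighm. Igha was found as single UMIs: 95 of 95 positive barcodes in reaction 1 and 18 of 18 in reaction 3 had exactly 1, and 98.8% in reaction 2. The variance of UMIs per barcode divided by its mean, which is 1 for counts scattered at random, was 10.4, 14.8 and 22.8 for Ighg1 and 1.05, 1.05 and 1.07 for Ighd. Jchain stood at 6.80, 7.42 and 4.89, Ighg2b at 4.93, 6.21 and 7.096, and Ighg2c at 10.7, 8.48 and 4.61. Ighm was at 1.18, 1.18 and 1.52, and Igkc at 2.68, 5.35 and 7.53. The median over 11183, 11126 and 11432 genes was 1.02, 1.02 and 1.03, and in the 3 reactions 2, 0 and 0 genes outside the immunoglobulin loci had a higher ratio than Ighg1. Single barcodes weighed on this: 1 held 415 of 25883 Ighg1 UMIs in reaction 2 and another 121 of 1720 in reaction 3. Without the top barcode of each gene, chosen after seeing the data, the ratio of Ighg1 was 10.2, 8.30 and 15.4, with 2, 3 and 1 such genes above it, that of Igkc 2.66, 2.80 and 4.33, and that of Ighd 1.05, 1.05 and 1.06. After thinning to 1000 UMIs the ratio was 5.20, 4.13 and 6.89 for Ighg1, 1.00, 1.01 and 1.01 for Ighd and 3.59, 3.25 and 3.19 for Jchain.

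**Figure D4:**
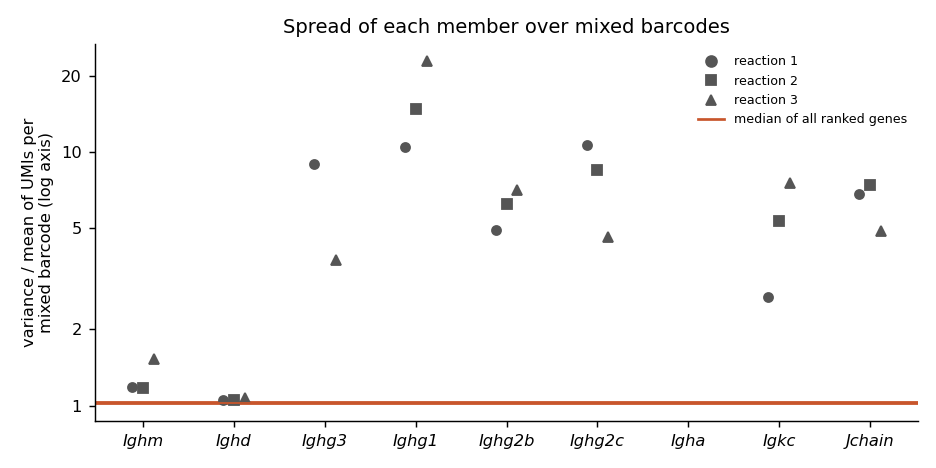
Variance divided by mean of UMIs per mixed barcode (log axis) for each gene, 1 point per reaction, with the median over all ranked genes as a line; Igha and the Ighg3 value of reaction 2 fell under the minimum mean of 0.005 UMIs per barcode and are not drawn. Ighd lies near the line at 1.05 to 1.07, and Ighg1 lies between 10.4 and 22.8.

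A mixed barcode with IgG usually had a single subclass. Of the 5840, 3907 and 330 mixed barcodes with at least 3 IgG UMIs, 96.5% (exact 95% interval 95.9 to 96.9), 95.1% (94.4 to 95.8) and 97.0% (94.5 to 98.5) had at least 80% of these UMIs from 1 of the 4 genes. Taking all 7 heavy-chain genes, 10787, 6333 and 888 mixed barcodes had at least 3 UMIs, and an isotype was called leading at 80% of them. An IgG gene led in 38.2%, 45.3% and 26.5%, Ighm in 10.2%, 9.84% and 24.1%, and no gene reached 80% in 50.5%, 44.4% and 48.8%. Ighm and Ighd were scored as separate genes, so a barcode with both could lack a leader. The IgG-led and Ighm-led shares are therefore not on an equal footing. The mean IgG-led share, 36.7%, was 59.9% at a minimum of 5 UMIs and 20.7% at a lead of 95%. Igha led in 0 barcodes of all 3 reactions. Ighg1 led most IgG barcodes, 3471, 2392 and 156 in the 3 reactions, and Ighg3 led 100, 1 and 28, which is 0.927%, 0.0158% and 3.15% of the barcodes with at least 3 heavy-chain UMIs. Among B-marker barcodes an IgG gene led in 74 of 350, 17 of 235 and 5 of 11, and among T-marker barcodes in 49 of 92, 102 of 225 and 6 of 15.

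Jchain went with the IgG-led barcodes. In mixed barcodes a Jchain UMI was found in 94.7% of those led by an IgG gene in reaction 1 (exact 95% interval 94.0 to 95.4), 95.4% in reaction 2 (94.5 to 96.1) and 88.5% in reaction 3 (83.7 to 92.3). The share was 17.7%, 16.4% and 32.2% in Ighm-led barcodes and 6.67%, 6.95% and 6.80% in barcodes without any heavy-chain UMI. IgG-led barcodes were the shallower group in each reaction, with median UMIs of 2199, 2022 and 1229 against 2306, 2267 and 2617.5 in Ighm-led barcodes. They held more heavy-chain UMIs, however, with medians of 8, 6 and 5 against 3, 3 and 3, the minimum for a lead. The part of this difference in the Jchain shares was not tested. All 4 subclasses had high shares with Jchain, from 85.3% for Ighg2c in reaction 3 to 98.0% for Ighg3 in reaction 1. The exception was Ighg3 in reaction 2, where the only barcode had no Jchain UMI. Ighd-led barcodes stood at 4.505% of 111, 6.06% of 33 and 16.7% of 6. The same held where B cell or T cell genes predominated: 97.3%, 100% and 100% of IgG-led B-marker barcodes and 95.9%, 95.1% and 100% of IgG-led T-marker barcodes had a Jchain UMI. The IgG-led T-marker barcodes had a median of 0 B-list UMIs in each reaction, as did all T-marker barcodes. The cut on the B share largely sets this value.

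**Figure D5:**
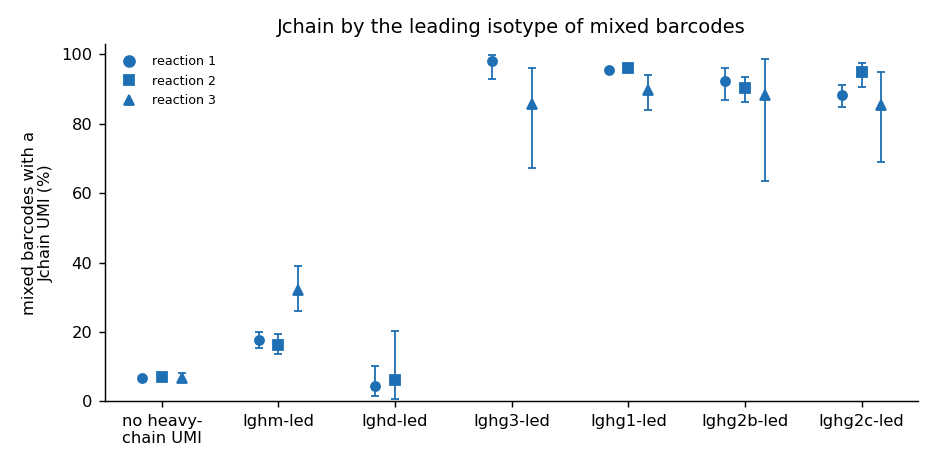
Percentage of mixed barcodes with a Jchain UMI by the heavy-chain gene that leads the barcode (at least 80% of 3 or more heavy-chain UMIs), 1 point per reaction with exact 95% intervals; the single Ighg3-led barcode of reaction 2 and the 6 Ighd-led barcodes of reaction 3 are not drawn. IgG-led groups lie between 85.3% and 98.0%, Ighm-led groups between 16.4% and 32.2%.

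Summed levels in mixed barcodes gave the same picture. Jchain was at 2554, 2365 and 2044 CPM in IgG-led barcodes and at 137, 215 and 497 CPM in Ighm-led ones. Igkc was at 1771, 1850.4 and 2256 CPM against 415, 459 and 589 CPM. For both genes the IgG-led value was higher in all 3 reactions. These groups were set from the members themselves, so no test was made between them. Over 8435 genes with at least 200 UMIs, 11.3% were higher in IgG-led than in Ighm-led barcodes in all 3 reactions. In the secretory pathway list this held for 19 of 20 genes, the exception being Erlec1. Mzb1 was at 447 ± 59.7 CPM against 102 ± 21.05 (SD, n = 3), and Creld2 at 95.01 ± 3.13 against 31.2 ± 4.31. Sdc1, which encodes the plasma cell surface protein CD138, was at 18.7 ± 6.58 against 5.97 ± 1.39 CPM. Xbp1 was at 142 ± 1.19 against 60.4 ± 6.74 CPM. Other lists had 6 of 9 (plasma regulators), 2 of 8 (germinal center genes), 1 of 13 (B cell receptor partners) and 1 of 3 (polymeric antibody partners). The light-chain list had 3 of 4, the lambda constants, with Vpreb3 as the exception. Switch machinery, switch-directing receptors, follicular and memory genes had 0 of 12, 12, 10 and 3. Slpi, a secreted protease inhibitor chosen after its values were seen, was at 1882 ± 513 against 36.6 ± 10.6 CPM, a ratio of 51.4, where Jchain had a ratio of 8.21. Slpi differed by subclass. A Slpi UMI was found in 68.3%, 79.6% and 58.3% of Ighg1-led mixed barcodes in the 3 reactions. Among Ighg3-led ones it was found in 35.0% of 100 in reaction 1 and 0% of 28 in reaction 3.

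Light-chain and V segment UMIs accompanied the constant genes. In mixed barcodes there were 1.502, 2.25 and 1.80 Ighv UMIs per heavy-chain constant UMI and 8.28, 8.203 and 7.42 Igkv UMIs per Igkc UMI. The lambda constants took 46.8%, 43.1% and 49.5% of light-chain constant UMIs in mixed barcodes, while lambda V genes took 7.32%, 4.88% and 6.18% of light-chain V UMIs. IgG-led mixed barcodes had a median of 15, 19 and 14 Ighv UMIs and Ighm-led ones of 1, 1 and 2. Ighe had 25, 14 and 1 UMIs in mixed barcodes.

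The heavy-chain V genes of barcodes led by the less abundant subclasses were mostly few, though Ighg2c-led barcodes of reaction 1 had 9. A V gene was assigned where it held at least 80% of 3 or more Ighv UMIs; V genes resemble each other, so these names are uncertain. In reaction 2, Ighv9-3 was assigned in 179 of 253 Ighg2b-led mixed barcodes (70.8%) and Ighv8-8 in 118 of 189 Ighg2c-led ones (62.4%), while the leading V gene of Ighg1-led barcodes, Ighv3-6, was assigned in 524 of 1816 (28.9%). In reaction 1, 3 V genes (Ighv1-19, Ighv14-2 and Ighv1-47) covered all 87 assigned Ighg3-led barcodes. The effective number of V genes, the inverse of the summed squared shares, was 15.6, 6.60 and 4.12 for Ighg1-led barcodes of reactions 1, 2 and 3. It was 2.88, 1.90 and 2.18 for Ighg2b, 6.73, 2.25 and 3.17 for Ighg2c, and 5.47, 5.83 and 4.66 for Ighm. In all 3 reactions Ighg1 had a higher value than Ighg2b and Ighg2c, but in reaction 3 it was below Ighm. Behind the Ighg1 values were 2555, 1816 and 124 assigned barcodes, against 118, 253 and 14 for Ighg2b. Whether the numbers of barcodes matter for the difference was not tested.

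Across the 9 sums of B-marker, T-marker and mixed barcodes, the genes outside the immunoglobulin loci whose log2(CPM + 1) was most like that of each of 4 members were found by Pearson's r over 12555 genes (12554 for Jchain), as a description of sums that share libraries. Ighd was closest to Ppp3ca (r = 0.992), Ebf1 (0.991) and Syk (0.990). Ighg1 was closest to Itprid2 (0.943), Nbas (0.943) and Cmah (0.934). Jchain was closest to Cry1 (0.944), Azin1 (0.930) and Cog5 (0.925), and Igha, with 212 UMIs in these sums, to Gm34983 (0.979), Gm26760 (0.976) and Cxxc5 (0.975). Ebf1 and Syk act in B cell identity and receptor signaling.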

How the data were processed

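The authors deposited UMI counts per gene and barcode, without normalization, for 3 TDLN and 2 MC38 tumor reactions from 10x Genomics 5′ libraries. The TDLN matrix headers name Cell Ranger 7.1.0, the submitters' processing notes Cell Ranger 3.1.0 and GRCm38. Barcodes with 200 to 2500 genes and at most 10% mitochondrial UMIs were kept; doublets were not removed. The 9 genes and all lists were chosen with earlier results of these data known. Counts were summed per class and reaction (sums of at least 10 barcodes) and tested with edgeR 4.0.16 (R 4.3.3; TMM, filterByExpr, glmQLFTest, reaction as block, adjusted p of 0.05); DESeq2 1.42.0 was an alternative. Classes of the same number come from the same reaction, which is why the reaction was a block; deviations of classes of the same reaction correlated at 0.0147 to 0.411 over 12723 genes. B-marker, T-marker and mixed sums shared a fit; the plasma-type sums were added at the 0.3% cut, since the 0.5% cut left under 10 barcodes. Intervals are exact 95% Clopper-Pearson intervals for shares. A level of 0 was bounded at 3 UMIs. From each list at most 4 genes past the threshold were named, by absolute log2 change; likeness used genes with at least 200 UMIs. On simulated data, 92.0% of tested genes changed by 2 on the log2 scale and 47.6% of those changed by 1 were recovered for B-marker against T-marker. The changed genes had at least 200 UMIs, and no clustering of UMIs in single barcodes was simulated. These shares do not carry over to the IgG genes or Jchain, whose UMIs cluster. CH1 sequences were read from GENCODE M21 transcripts. A few genes of the lists were counted but are not reported here by name.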

Additional observations from a re-analysis of the deposited data

Results flagged for a closer look

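The MC38 tumor reactions were outside the comparisons above, and antibody gene UMIs exceeded 3 there for all genes but Ighg3 (3 and 0 UMIs) and, in reaction 2, Ighg2c (0). MC38 tumor reaction 1 held 3148 Ighm UMIs (7.24 CPM), 25 Ighd, 1093 Ighg1, 13 Ighg2b, 332 Ighg2c, 27 Igha, 1055 Igkc and 363 Jchain UMIs, in 37774 barcodes. MC38 tumor reaction 2 held 3143 Ighm UMIs (8.33 CPM), 26 Ighd, 225 Ighg1, 9 Ighg2b, 992 Igha, 610 Igkc and 806 Jchain UMIs, in 27582 barcodes. The 992 Igha UMIs of reaction 2 lay in 80 barcodes and made 2.63 CPM, above the 1.12, 1.16 and 1.495 CPM of Igha in the TDLN reactions. The 1093 Ighg1 UMIs of reaction 1 lay in 71 barcodes. The MC38 tumors, from a colorectal line, came from mice given isotype antibodies or CPI and then vehicle or ABT-317. Live tumor cells were sorted and mixed in equal parts of CD45-positive and CD45-negative cells, while TDLN cells were unsorted. The 2 kinds of matrix also come from different Cell Ranger versions (8.0.1 for MC38). The difference between tumor and TDLN was not tested.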

How the results depend on the processing

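Isotype shares, leading isotypes and calls were recomputed under each alternative. Of 107, 108 and 117 values recomputed for B-marker against T-marker, B-marker against mixed and plasma-type against B-marker, 11, 20 and 16 changed their side of the threshold, their direction or, for counts, moved by over 1.5 times; a further 2, 6 and 2 differences that did not pass changed sign. Of the isotype shares 48 moved by more than the spread between reactions and 276 did not. Of the leading-isotype shares 85 did and 158 did not. None of 54 mean levels in CPM did. These were recomputed only without the barcode holding most UMIs and without immunoglobulin genes in the total, not with other filters, cuts or reactions. Their spread could also be wide: Ighg3 in B-marker barcodes had an SD of 81.0 on a mean of 53.2 CPM. The count of 54 is therefore no measure of how stable the levels are. With the reaction as a block, 2509, 1228 and 337 genes passed in the 3 comparisons. With no block the pairing by reaction was ignored and 1692, 365 and 254 passed; outside B-marker against mixed, Ighd in plasma-type barcodes was the member whose call was lost. Leaving out a reaction gave 1310 to 2288, 357 to 1250 and 153 to 312, the lowest without reaction 2 each time; without reaction 3, B-marker against mixed gave 617. DESeq2 passed 1777, 546 and 335 genes. A fit of only the 2 classes compared gave 812 of 11822 genes tested for B-marker against mixed. For plasma-type against B-marker it gave 129, but of only 1696 genes tested in place of 10672. Scaling by library size alone gave 1532 higher and 970 lower for B-marker against T-marker, where TMM gave 1285 and 1224, and 174 higher and 387 lower (561 in all) for plasma-type against B-marker, where TMM gave 209 and 128. Without upper gene and mitochondrial limits 803 passed there. Ighg2b in plasma-type against B-marker reversed to -9.41 without reaction 2 (adjusted p 0.843), as no Ighg2b UMI was left in the plasma-type sum; its values without a reaction ran from there to 7.70.

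The IgG share of mixed barcodes was 43.6% to 53.7% when a reaction was left out, of B-marker 25.9% to 40.6%, of T-marker 36.7% to 46.1% and of plasma-type 99.05% to 99.09%. As a mean over barcodes it was 51.7% in T-marker and 97.2% in plasma-type barcodes. The plasma-type share was 96.1% without the upper limits, 95.3% and 100% at cuts of 0.3% and 1%, 99.3% with no condition on T-list UMIs, 98.96% without shared barcode sequences and 96.6% after thinning. Shares of barcodes led by IgG genes moved with the rule: with the mixed barcodes of at least 3 heavy-chain UMIs as denominator the mean was 36.7%, and it was 24.4% and 59.9% with a minimum, and so a denominator, of 2 and 5 UMIs, 52.3% and 20.7% at a lead of 60% and 95%, and 54.1% after thinning; the T-marker value, 46.2% on the same denominator, became 30.4%, 72.8%, 54.7%, 26.8% and 62.7%. Leaving out a reaction gave 32.4% to 41.8% (mixed), 14.2% to 33.3% (B-marker) and 42.7% to 49.3% (T-marker). Leaving out the barcode that held most UMIs was chosen after seeing the data. Plasma-type cuts of 0.5% and 1% were not run in the comparison, as under 10 barcodes remained. The number of barcodes limits reaction 3 most, with 80 heavy-chain UMIs in its 46 B-marker barcodes.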
